A study of Mus musculus with 42 samples.

Results

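Transcripts that mark neutrophils and other myeloid cells were measured in isolated mouse colon crypts and in colon tumors. The 10 genes were Ngp, Camp, Chil3, S100a8, S100a9, Ltf, Lyz2, Retnlg, Il1b and Csf3r, out of 20462 genes listed in at least 1 of 9 tables of normalized counts. They were picked by symbol with their levels in the libraries after injury and in tumors already known, so their values in those libraries are given as a description, with no p-value, and counts of members past the threshold of a fit over all genes stand beside the share of all genes past it and support nothing. Bulk RNA does not tell fewer cells of a type from less RNA per cell.

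The 42 libraries came from C57/BL6 mice at least 8 weeks old in independent colonies, 1 carrying Mtg16-/- (a null allele of the transcriptional corepressor MTG16) and 1 carrying P209T, a point mutation that weakens the binding of MTG16 to E proteins. P209T homozygotes are called Mtg16 T/T, and each mutant group had WT littermates of its own colony. MTG16 was altered in the whole animal, blood cells included. Untreated crypts came from the proximal colon (5 cm from the cecum: 2 Mtg16-/- and 2 WT, 2 Mtg16 T/T and 2 WT) and the distal colon (5 cm from the anus: 4 Mtg16-/- and 4 WT, 4 Mtg16 T/T and 3 WT). Distal crypts were also taken after dextran sulfate sodium (DSS), which strips the colon lining, given at 2% in the drinking water for 5 days with 4 days of recovery (4 Mtg16-/- and 3 WT, 3 Mtg16 T/T and 3 WT). Distal tumors arose after the carcinogen azoxymethane (AOM, 10 mg/kg) and 3 cycles of 3% DSS (3 Mtg16 T/T and 3 WT). Crypts were shaken free with EDTA, which leaves most of the lamina propria behind, whereas tumors were homogenized whole.

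Neutrophils are made in the bone marrow and fill their granules in order as they mature. Azurophil granule enzymes are transcribed first, then the proteins of specific granules, and the message for most granule proteins is low in mature circulating cells. S100a8 and S100a9, in contrast, stay abundant in mature neutrophils and monocytes. In colitis, neutrophils leave the blood, cross the lamina propria and enter crypts, where they form crypt abscesses. Several of the 10 genes are also read in other cells: Lyz2 in macrophages, Il1b in any activated myeloid cell, and Ltf in mucosal epithelium.

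Among the granule genes, Ngp encodes neutrophilic granule protein (chromosome 9, 110419747-110423012, plus strand, GRCm38), Camp the antimicrobial peptide cathelicidin (chromosome 9, 109847379-109849617, minus) and Ltf the iron-binding protein lactoferrin (chromosome 9, 111019271-111042767, plus). All 3 are specific granule products. Chil3 encodes the chitinase-like protein Ym1 (chromosome 3, 106147554-106167564, minus), made by neutrophils and some macrophages. S100a8 (chromosome 3, 90668978-90670035, plus) and S100a9 (chromosome 3, 90692632-90695721, minus) are neighbours and encode both subunits of calprotectin. Lyz2 (chromosome 10, 117277331-117282321, minus) encodes the lysozyme of myeloid cells, Retnlg (chromosome 16, 48872621-48874496, plus) a resistin-like protein of neutrophils, Il1b (chromosome 2, 129364570-129371139, minus) the cytokine interleukin-1 beta, and Csf3r (chromosome 4, 126024550-126044440, plus) the receptor for the growth factor that drives neutrophil production.

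C/EBP factors switch on the specific granule genes in maturing neutrophils. The promoter stretches of the 4 members below are shown because Ngp and Chil3 were separate from WT in both mutants after DSS, S100a9 was among the most abundant per kilobase both in Mtg16-/- crypts and in tumors, and Ltf differed least between genotypes after DSS. They come from the RefSeq promoter table (GRCm38.p6), read 5′ to 3′ on the gene's strand, and end at the base before the annotated start. Capitals mark the C/EBP core TTNNGNAA or its reverse TTNCNNAA. The windows are chr9:110419558-110419746 for Ngp, chr3:106167565-106167814 for Chil3, chr3:90695722-90695971 for S100a9 and chr9:111019042-111019270 for Ltf.
Ngp: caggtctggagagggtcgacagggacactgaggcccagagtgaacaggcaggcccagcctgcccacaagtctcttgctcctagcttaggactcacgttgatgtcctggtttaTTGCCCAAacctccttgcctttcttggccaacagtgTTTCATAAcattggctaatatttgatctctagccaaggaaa
Chil3: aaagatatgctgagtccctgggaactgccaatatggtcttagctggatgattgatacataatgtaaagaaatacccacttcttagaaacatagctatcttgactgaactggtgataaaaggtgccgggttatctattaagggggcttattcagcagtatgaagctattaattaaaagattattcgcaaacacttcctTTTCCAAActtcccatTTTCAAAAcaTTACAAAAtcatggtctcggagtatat
S100a9: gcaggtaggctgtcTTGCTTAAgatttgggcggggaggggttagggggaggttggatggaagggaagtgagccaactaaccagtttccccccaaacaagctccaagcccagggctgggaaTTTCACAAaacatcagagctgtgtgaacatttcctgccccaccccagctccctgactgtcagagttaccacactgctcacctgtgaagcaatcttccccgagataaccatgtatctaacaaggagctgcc
Ltf: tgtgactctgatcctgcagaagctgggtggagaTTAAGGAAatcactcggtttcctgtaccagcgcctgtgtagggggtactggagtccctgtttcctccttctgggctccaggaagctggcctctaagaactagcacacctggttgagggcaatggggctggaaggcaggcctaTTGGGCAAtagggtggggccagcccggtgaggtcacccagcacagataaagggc
The 4 stretches held 2, 3, 2 and 2 matches. Over the 250 bases before the RefSeq start, 8 of the 10 members held at least 1 match (not Camp or Csf3r), beside 36.8% of 32851 promoters. Such a match describes letters only and is not a binding site.

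Read depth could be recovered for 38 libraries and ran from 32231389 to 74661922 assigned reads (median 46659625). Values below are normalized counts, which are reads divided by 1 size factor per library and comparable within a table, unless CPM (normalized counts scaled to a library total of 1000000) are named. Cbfa2t3, the gene of MTG16, read 427-595.5 in Mtg16-/- crypts after DSS and 1845-2519 in their WT littermates, without overlap. In distal crypts at baseline the ranges overlapped (424.4-1095 in Mtg16-/-, 1027-1809 in WT). Epithelial genes dominated every library: 10 of them summed to 18673-31012 CPM in the crypts after DSS and 11117-16922 in tumors, where 7 fibroblast genes summed to 2781-3800 against at most 80.0 in those crypts.

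Each of the 10 transcripts was highest, by mean CPM, either in the DSS-treated Mtg16-/- crypts or in tumors. The sum of the 10 was 968 ± 692 (SD, n = 3) in Mtg16 T/T tumors, 699 ± 77.4 (n = 3) in WT tumors and 283 ± 170 (n = 4) in Mtg16-/- crypts after DSS. It was 55.6 ± 38.3 (n = 3) in the WT littermates of the Mtg16-/- mice after DSS, 55.1 ± 10.6 (n = 3) in Mtg16 T/T crypts after DSS and 20.7 ± 7.83 (n = 3) in their WT littermates. Single libraries carried some of these means: that of Mtg16 T/T tumors fell to 569, under the lowest WT tumor (615), without replicate 2 (1765), and that of the WT littermates of the Mtg16-/- mice after DSS to 33.7 without replicate 3. The 8 baseline conditions had means from 3.85 to 15.9. DSS-treated Mtg16 T/T crypts and the WT littermates of the Mtg16-/- mice thus differed by less than their spread.

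The order was not the same for each gene. Ngp averaged 13.3 ± 14.9 CPM in Mtg16-/- crypts after DSS, and 1.54 ± 0.323 in Mtg16 T/T tumors came second. Camp had the same first place, at 1.77, and read 0 in every baseline library. For Chil3, Mtg16-/- crypts after DSS (8.86) and Mtg16 T/T tumors (8.27) lay side by side, and WT tumors read 5.09. S100a8 averaged 73.9 in WT tumors, 68.8 in Mtg16 T/T tumors and 66.9 in Mtg16-/- crypts after DSS, again within their spread. Lyz2, Csf3r and Il1b were highest in tumors. Lyz2 read 335 in Mtg16 T/T tumors and 260 in WT tumors against 52.9 in Mtg16-/- crypts after DSS, Csf3r 49.9 and 39.0 against 7.42, and Il1b 99.3 and 102 against 33.9. The tables were scaled separately, and no test was made across them.

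**Figure D1:**
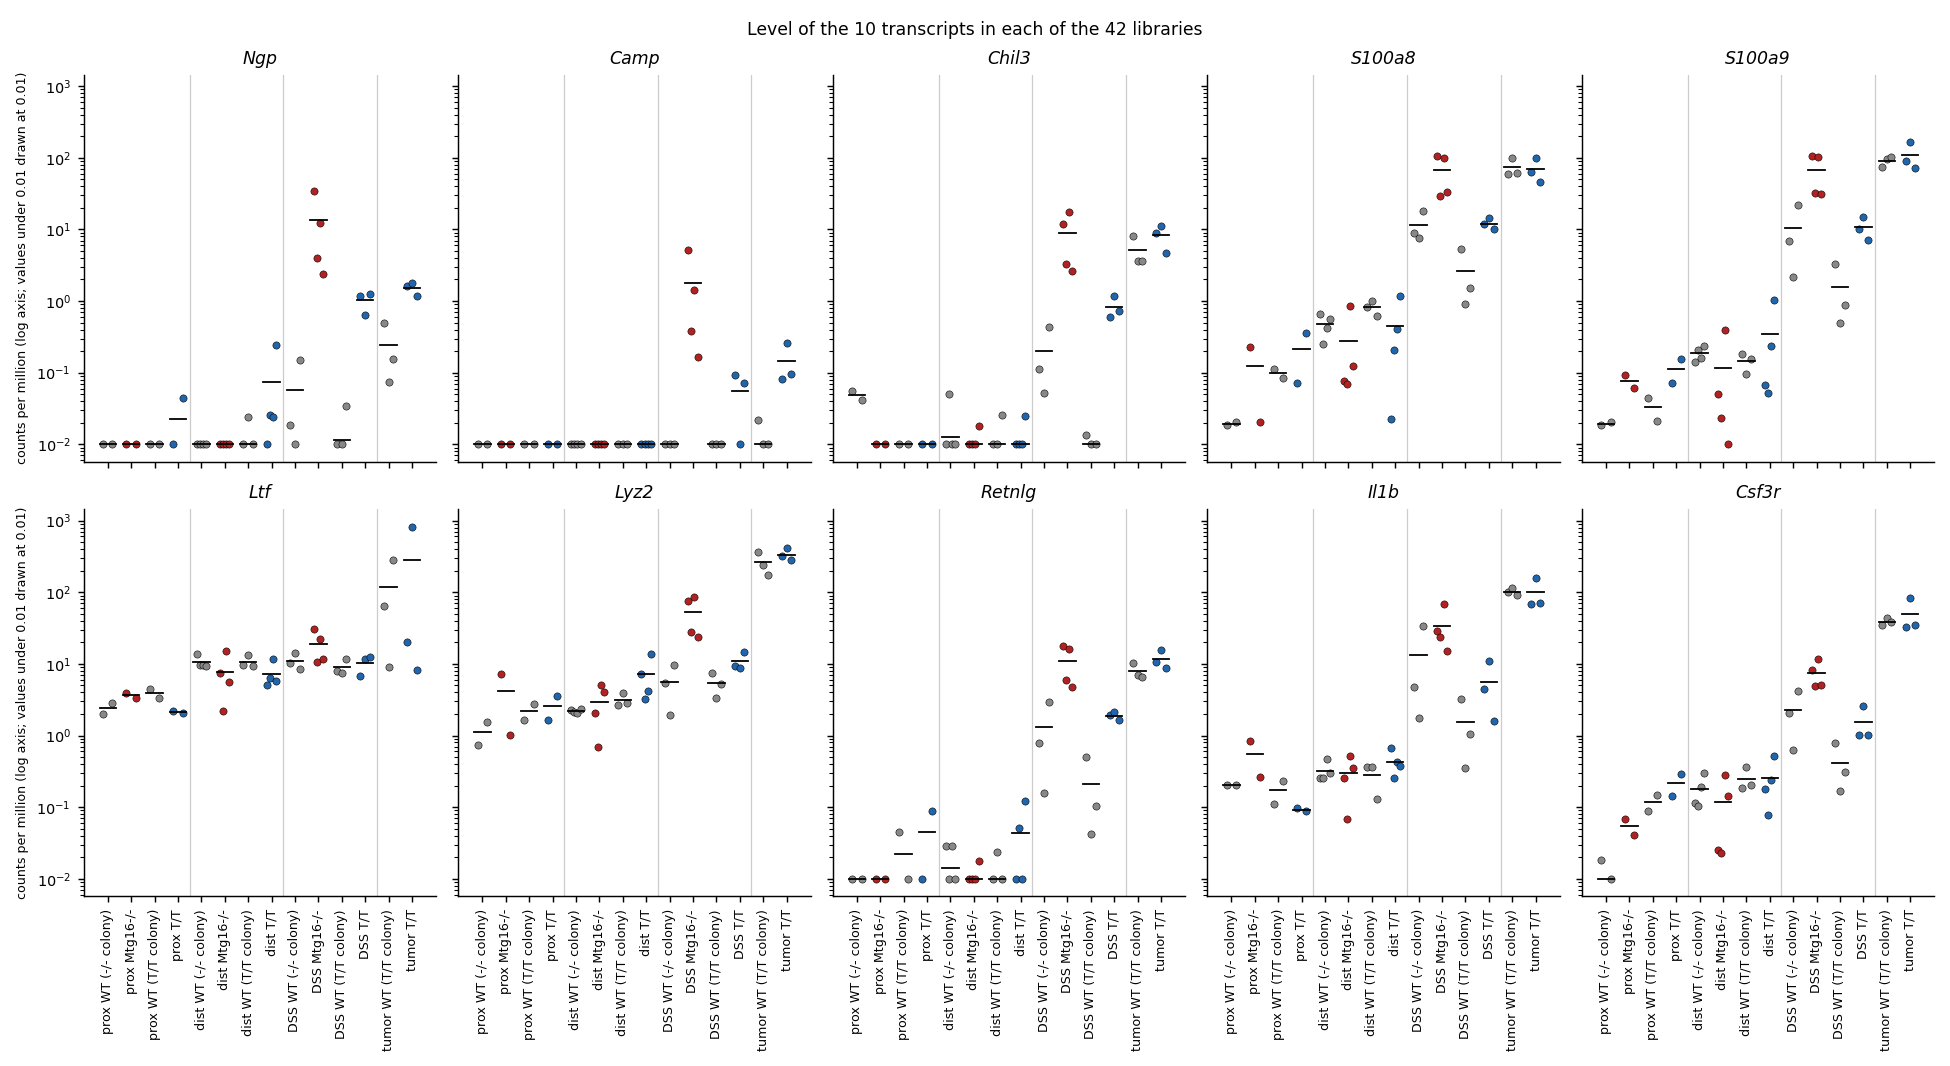
Level of each of the 10 transcripts in the 42 libraries, in CPM on a log axis, by condition; points are libraries and bars are condition means. Ngp and Camp peak in Mtg16-/- crypts after DSS, whereas Lyz2, Il1b and Csf3r peak in tumors, and Camp is at 0 in every baseline library.

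The first comparison asked how DSS-treated distal crypts of Mtg16-/- mice differed from those of their WT littermates. All 10 transcripts had higher means in Mtg16-/- crypts, and for 8 the lowest Mtg16-/- library lay above the highest WT library. Of all genes of the table, 5.77% were higher without overlap. Libraries are given in the order of their replicate numbers throughout. Ngp read 1984, 210, 684 and 138 in Mtg16-/- crypts against 1.08, 0 and 8.21 in WT. The 3 WT libraries held 10 Ngp reads in all and the 4 Mtg16-/- libraries 2758. Its log2 difference was 7.38 (SE 0.98) on the log2(normalized count + 1) scale.

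Camp, whose product is a peptide antibiotic, read 291, 20.2, 80.8 and 9.47 in Mtg16-/- crypts and 0 in each WT library. Against the 3 reads that a count of 0 allows in each WT library, this is at least 33.8-fold higher, and at least 12.4-fold without Mtg16-/- replicate 1. Chil3 read 673, 175, 991 and 154 against 6.49, 2.93 and 23.7, a ratio of means of 45.1 and a log2 difference of 5.35 (SE 0.79). These 3 were the members with the largest gap between genotypes, and their libraries did not overlap.

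The calprotectin genes were present in WT crypts too. S100a8 read 6023, 1540, 5619 and 1892 in Mtg16-/- crypts against 514, 417 and 970 in WT, a ratio of means of 5.95 (log2 difference 2.41, SE 0.51). S100a9 read 6063, 1712, 5725 and 1780 against 392, 120 and 1194, a ratio of 6.71 (3.06, SE 0.74). Both groups were separate, with Mtg16-/- replicates 2 and 4 nearest to WT replicate 3. Retnlg, made by mature neutrophils, read 1001, 313, 899 and 273 against 45.4, 8.79 and 160, a ratio of 8.72 (3.66, SE 0.85). Lyz2 read 4253, 1466, 4790 and 1373 against 306, 108 and 520, a ratio of 9.54 (3.29, SE 0.59). Its epithelial paralog Lyz1, with which reads can be shared, averaged 160 in Mtg16-/- and 188 in WT. The G-CSF receptor gene Csf3r read 462, 257, 652 and 294 against 117, 35.2 and 225, a ratio of 3.31 (1.98, SE 0.57).

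Il1b and Ltf overlapped between genotypes. Il1b read 1655, 1248, 3794 and 870 in Mtg16-/- crypts and 269, 98.7 and 1815 in WT (log2 difference 2.15, SE 0.85). WT replicate 3 alone lay within the mutant range. Ltf read 1737, 554, 1227 and 683 against 583, 784 and 464 (0.67, SE 0.38), so that the specific granule gene that is also read in epithelium stood apart from the other 2.

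The libraries moved as wholes. Mtg16-/- replicates 1 and 3 held the top 2 values for all 10 members, replicate 1 the highest for 6 (Ngp, Camp, S100a8, S100a9, Ltf and Retnlg) and replicate 3 for the other 4. Among WT libraries, replicate 3 was highest for 8 of the 10. Without it the ratios of means were 1395 for Ngp (244 with it), 106 for Chil3, 14.9 for S100a9, 22.9 for Retnlg, 14.3 for Lyz2, 10.3 for Il1b (2.60 with it) and 5.48 for Csf3r. Without Mtg16-/- replicate 1 the ratio for Ngp was 111, and without replicate 3 that for Il1b was 1.73. Compared per kilobase of transcript, the Mtg16-/- means ran from 7754 normalized counts per kilobase for S100a8 and 7360 for S100a9 over 2257 for Lyz2, 1395 for Il1b, 1048 for Retnlg, 617 for Ngp, 383 for Ltf and 324 for Chil3 to 132 for Camp and 120 for Csf3r.

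Since the members were chosen with these libraries known, the calls are given only beside their background. limma called 4 of the 10 (Ngp, Camp, Chil3 and Lyz2) at an adjusted p under 0.05, where 0.629% of the 14476 genes tested were called. Ngp and Camp passed the minimum mean of 10 through the Mtg16-/- libraries alone. Without Mtg16-/- replicate 1, Mtg16-/- replicate 3, WT replicate 1 or WT replicate 2 the count was 1 each time, and without WT replicate 3 it was 2. Same-numbered libraries deviated together, and with the replicate number as a block 9 of the 10 were called (all but Ltf), where 8.78% of genes were called. The block was chosen from that joint deviation in the same libraries, and the labels do not state a pairing.

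**Figure D2:**
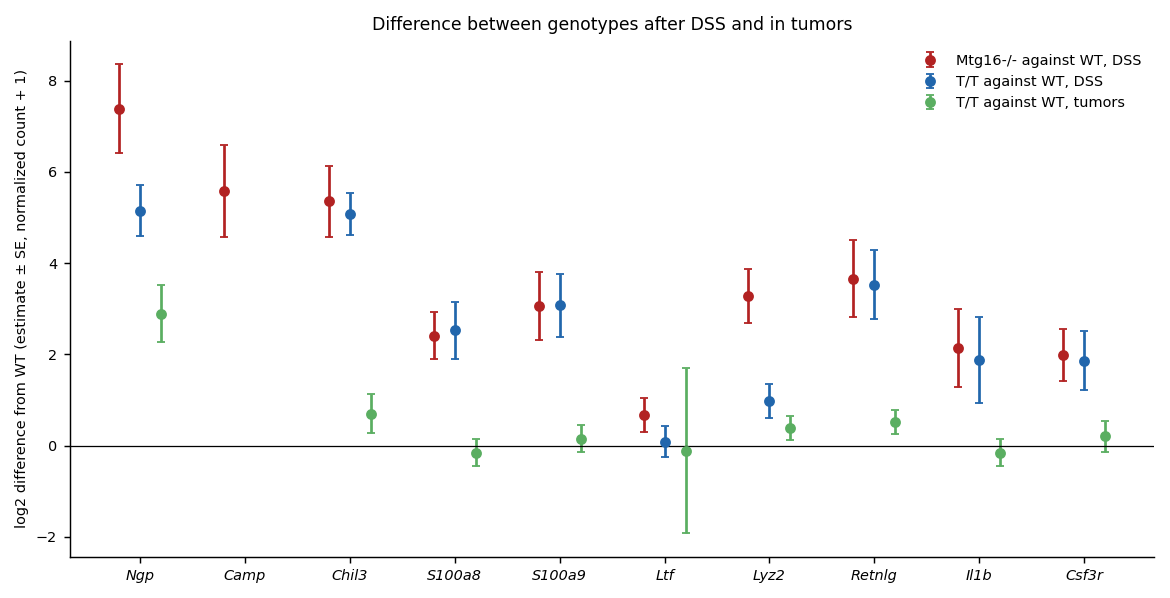
Difference between genotypes for each transcript on the log2(normalized count + 1) scale, as estimate ± SE, for Mtg16-/- against WT after DSS, Mtg16 T/T against WT after DSS and Mtg16 T/T against WT tumors; Camp was under the minimum mean of 10 in the last 2. Ngp is the highest point in each comparison, at 7.38, 5.15 and 2.89, while Ltf lies at 0.67, 0.08 and -0.11, the last with an SE of 1.81.

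Other neutrophil genes were read from lists that hold no member. Of 20 receptor and activation genes, all were tested, 19 had a positive difference and the median was 2.23, beside -0.002 for all genes. limma called 1, Padi4, whose enzyme citrullinates histones in neutrophil extracellular traps. Padi4 read 210, 101, 182 and 73.7 in Mtg16-/- crypts against 21.6, 7.82 and 26.4 in WT (log2 difference 2.89, SE 0.50, limma adjusted p = 0.0392). The groups were separate, but the adjusted p exceeded 0.05 when any 1 of the 7 libraries was left out (0.0502 to 0.129). With the replicate block 17 of the 20 were called, among them Padi4 (adjusted p = 0.000685).

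Of 20 further granule genes, 10 passed the minimum mean, 9 of these had a positive difference and the median was 3.24. Genes high in the Mtg16-/- libraries alone can pass this minimum, so the count and median lean towards positive differences. None of the 10 was called without the block and 7 rose with it, beside 5.72% of all genes tested. Mmp8, the collagenase of specific granules, read 191, 135, 366 and 33.7 against 7.57, 4.89 and 62.9 (3.19, SE 0.93, adjusted p = 0.165, and 0.00139 with the block). Itgb2l, an integrin subunit of granulocytes, read 89.3, 16.6, 30.0 and 4.21 against 0 in each WT library, and passed the minimum mean through the Mtg16-/- libraries alone. The genes of early precursors were nearly absent: Mpo, the myeloperoxidase gene, read 3.62, 0, 0.908 and 0 in Mtg16-/- crypts and 0 in WT, and Elane, the neutrophil elastase gene, was above 0 in replicate 1 only, at 2.41. Cd177 and Pglyrp1, which neutrophils share with colon epithelium, were abundant in both genotypes. Cd177 averaged 69659 in Mtg16-/- and 96942 in WT crypts (adjusted p = 0.461), and it fell with the block (log2 difference -0.64, adjusted p = 0.0193).

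Genes of several other cell types moved with the members, and those of mast cells did not. The 10 members summed to 130-436 CPM in Mtg16-/- crypts and to 28.3-99.4 in WT. Over the same libraries, 22 monocyte and macrophage genes, of which Lilrb4a was at 0 throughout, summed to 74.7-174 and 33.0-59.7, and 14 of the 21 tested were higher without overlap, beside 6.18% of all genes tested. The 9 pan-leukocyte genes summed to 126-266 and 48.5-109, and 9 T cell genes to 13.3-43.7 and 12.0-25.5. The tested genes of B and plasma cells (6, median 1.46), fibroblasts (5, median 1.45) and eosinophils (2, median 1.46) were all positive. The 6 red blood cell genes, of which Hbb-bs was at 0, summed to 8.64-100 against 1.28-4.97, and all 4 tested were higher without overlap. Among these, Alas2 (11.6-129 against 0-0.977) passed the minimum mean through the Mtg16-/- libraries alone. Of 6 mast cell genes 1 was positive, with a median of -0.64. Among them Cma1, a mast cell chymase gene, averaged 86.2 ± 31.8 in Mtg16-/- and 410 ± 128 in WT crypts (log2 difference -2.26, SE 0.34, limma adjusted p = 0.0248, and 0.0328 to 0.0906 with 1 library left out). Untreated distal Mtg16-/- crypts also had all 3 tested mast cell genes lower without overlap (median -1.94), beside 1.17% of all genes tested. In untreated proximal ones the 2 tested genes were lower as well, beside 18.1%. The part of these cell types in the members' values was not tested. The 10 epithelial genes summed to 19839-25267 and 18673-23374. With the block, 18 of the 21 monocyte and macrophage genes, 8 of the 9 pan-leukocyte genes and all 4 red blood cell genes were called higher, beside 5.72% of all genes tested, and without it none was.

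Of 19 genes for ligands that mobilize, recruit or activate neutrophils, 13 passed the minimum mean. All 13 had a positive difference and the median was 1.64. Here too, genes high in the Mtg16-/- libraries alone can pass the minimum, so the count and median lean towards positive differences. None of the 13 was called without the block and 4 were called higher with it, beside 5.72% of all genes tested. Among 10 genes for IL-1 receptors and IL-1 processing, 5 were positive, with a median of 0.07. With the block 2 were called higher, beside the same 5.72%.

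The same crypts in Mtg16 T/T mice held a lower mean CPM of every member than those of Mtg16-/- mice. These libraries came from different colonies and request numbers (the number that opens each library's label), 5740 and 6217. Allele, colony and request therefore cannot be told apart. The WT littermates differed in the same direction, with a summed CPM of the members of 20.7 and 55.6. Ngp read 55.8, 31.5 and 65.2 in Mtg16 T/T crypts against 0, 0 and 1.72 in WT. With 144 reads against 2, the ratio of reads, each as a share of its group's depth, was 97.5 (95% counting interval 26.5 to 813). Chil3 read 27.9, 58.7 and 37.2 against 0.706, 0 and 0, with 107 reads against 1 and a ratio of such shares of 145 (25.4 to 5774). No library of 1 genotype reached into the other for either gene. Camp read 4.29, 0 and 3.72 against 0 in each WT library, which is 8 reads in all and too few for a fold. The intervals cover counting error only.

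S100a8 read 551, 713 and 519 in Mtg16 T/T crypts against 281, 47.9 and 76.7 in WT, a ratio of means of 4.396 (log2 difference 2.53, SE 0.63). S100a9 read 482, 740 and 366 against 174, 26.7 and 43.9, a ratio of 6.50 (3.08, SE 0.69). Retnlg read 90.2, 104 and 84.7 against 26.1, 2.23 and 5.17, a ratio of 8.33 (3.53, SE 0.76). WT replicate 1 was the highest WT library in each of these, and in 7 of the 10 members. Without it the ratios were 9.54 for S100a8, 14.97 for S100a9 and 25.2 for Retnlg. Csf3r read 47.2, 126 and 53.1 against 40.9, 8.92 and 15.5 (1.86, SE 0.64), separated from WT replicate 1 by a narrow margin.

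Lyz2 differed less here, at 436, 429 and 755 against 391, 179 and 263, a ratio of 1.94 (0.98, SE 0.38). Il1b overlapped, at 208, 535 and 81.9 against 170, 18.9 and 53.4 (1.88, SE 0.94). Ltf overlapped as well, at 313, 577 and 649 against 419, 401 and 587 (0.08, SE 0.34). In all, 7 of the 10 members were higher without overlap, beside 6.06% of all genes of the table. limma called none of the 13648 genes tested (0.0%), members included, although 1197 had an unadjusted p under 0.05. edgeR called none either, and DESeq2 called 334 (2.45%), of which 5 were members. Ngp and Chil3 passed the minimum mean through the Mtg16 T/T libraries alone.

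In the lists, all 16 tested receptor and activation genes were positive, with a median of 1.68 beside 0.032 for all genes. Of the 16, 8 were higher without overlap, beside 5.66% of all genes tested. Genes high in the Mtg16 T/T libraries alone can pass the minimum mean, as Padi4 did (25.8-26.8 against 1.7-9.2). The count and median thus lean towards positive differences. Of the 7 further granule genes tested, 4 were positive. Mmp8 read 32.2, 47.2 and 10.2 against 1.41, 0 and 0 (adjusted p = 0.165), and passed the minimum mean through the Mtg16 T/T libraries alone. Cd177 (58864-84554 against 93120-148618) and Pglyrp1 (16915-27997 against 28690-32710) were lower without overlap. Of 19 tested monocyte and macrophage genes 13 were positive, with a median of 0.21, and their sums overlapped (51.9-63.3 CPM in Mtg16 T/T, 47.2-64.7 in WT). Red blood cell genes again moved with the members, at 10.99-50.7 against 2.91-8.25, and 4 of the 4 tested were higher without overlap. Among these, Alas2 (17.2-56.8 against 2.82-12.9) passed the minimum mean through the Mtg16 T/T libraries alone. B and plasma cell genes summed to 15.9-17.4 against 4.39-8.197. Their part in the members' values was not tested.

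**Figure D3:**
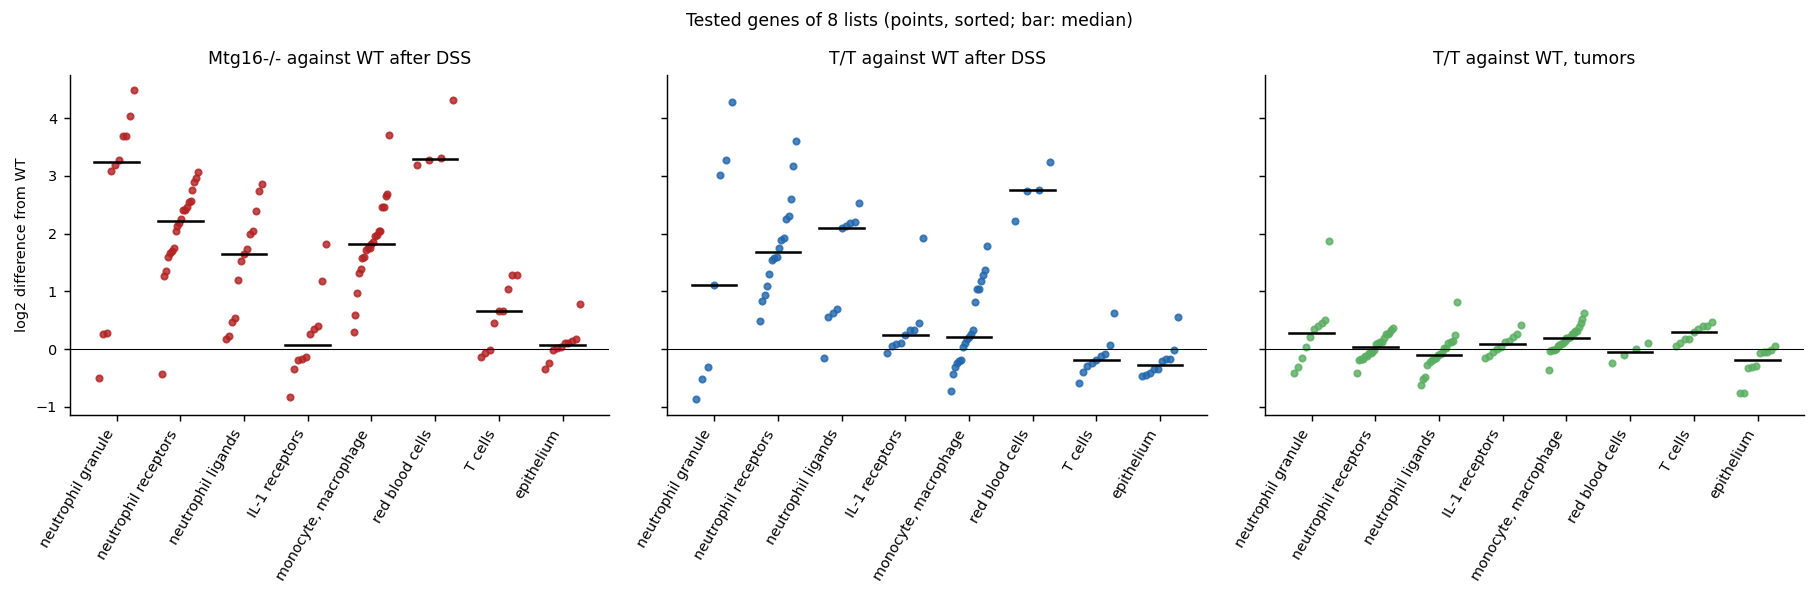
Differences between genotypes for the tested genes of 8 lists that contain none of the 10 members, in the 3 comparisons after injury and in tumors; points are genes sorted within a list and bars are medians, in log2 units. The receptor and activation list has a median of 2.23 in Mtg16-/- crypts, 1.68 in Mtg16 T/T crypts and 0.04 in tumors, and the monocyte and macrophage list 1.82, 0.21 and 0.19. Genes high in the mutant libraries alone can pass the minimum mean.

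In whole tumors only Ngp and Camp, of the 10 members, were separate between genotypes. Ngp read 79.9, 87.3 and 55.9 in Mtg16 T/T tumors and 24.2, 3.52 and 7.76 in WT tumors, a ratio of means of 6.28 (log2 difference 2.89, SE 0.62), which was 13.2 without WT replicate 1. Camp read 4.00, 12.5 and 4.53 against 1.05, 0 and 0, with 22 reads against 1 and a ratio of read shares of 17.6 (95% counting interval 2.84 to 725). Both were higher without overlap, beside 3.47% of all genes of the table. limma called none of 15900 genes (0.0%), with 392 at an unadjusted p under 0.05. edgeR called none, and DESeq2 called 24, none of them a member.

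The other 8 members overlapped between the tumor groups. S100a8 read 3036, 4755 and 2180 in Mtg16 T/T tumors against 2912, 4778 and 3107 in WT (log2 difference -0.15, SE 0.30). S100a9 read 4335, 7973 and 3422 against 3598, 4626 and 5186 (0.15, SE 0.30). Calprotectin message was thus abundant in tumors of both genotypes. Chil3 read 427, 549 and 224 against 392, 173 and 179 (0.70, SE 0.42), and Retnlg 522, 750 and 412 against 497, 334 and 328 (0.52, SE 0.26).

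Il1b read 3372, 7604 and 3407 in Mtg16 T/T tumors against 4931, 5421 and 4560 in WT (-0.16, SE 0.30). Csf3r read 1580, 4011 and 1635 against 1692, 2106 and 1908 (0.20, SE 0.34). Lyz2 read 15333, 19938 and 13209 against 17661, 11592 and 8754 (0.39, SE 0.26). Mtg16 T/T replicate 2 was the highest library of its group for all 10 members. Lyz1 was more abundant still, at a mean of 54277 against 47144, and Lyz2 and Lyz1 can share reads. Ltf ranged from 387 to 40041 over the Mtg16 T/T tumors (989, 40041 and 387) and from 433 to 14310 over the WT tumors (3117, 433 and 14310), so its difference (-0.11, SE 1.81) is set by single tumors. It ran from -2.12 to 1.23 with 1 tumor left out and was 1.22 in the count tests.

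Among the further granule genes tested in tumors, Cebpe was separate. Cebpe, which encodes the C/EBP factor of specific granule maturation, read 27.97, 57.8 and 18.1 in Mtg16 T/T tumors against 8.43, 11.4 and 4.66 in WT (1.87, SE 0.55, limma adjusted p = 0.998). Cebpe passed the minimum mean through the Mtg16 T/T tumors alone. Itgb2l, under the minimum mean, was also higher without overlap, at 8.79, 10.2 and 8.31 against 3.16, 6.16 and 1.55, whereas Stfa3 was lower, at 0-1.13 against 1.55-3.16. The receptor and activation list had 10 of 20 genes positive and a median of 0.04. Red blood cell genes summed to 24.2-31.6 in Mtg16 T/T and 18.5-50.3 in WT tumors, and monocyte and macrophage genes to 511-991 and 601-636.

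Ratios within a library do not depend on its depth or scaling, and show how the mix of the 10 transcripts varied. They rest on the same libraries as the choice of members and carry no test. For every 100 counts of S100a8, Mtg16-/- crypts after DSS held 7.29-32.9 of Ngp (median 12.9) and Mtg16 T/T crypts 4.42-12.5 (median 10.1). The WT littermates held 0-0.846 and 0-2.25. Tumors held 1.84-2.63 in Mtg16 T/T and 0.0737-0.832 in WT. The mutant and WT ranges did not overlap in any of the 3 settings, so Ngp differed by more than S100a8 did.

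Chil3 per 100 of S100a8 was 8.12-17.6 in Mtg16-/- crypts against 0.703-2.44 in WT, and 5.07-8.23 in Mtg16 T/T crypts against 0-0.251. In tumors the ranges overlapped (10.3-14.1 and 3.63-13.5). Retnlg lay in a narrow range in mutants, at 14.4-20.3 in Mtg16-/- crypts, 14.7-16.4 in Mtg16 T/T crypts and 15.8-18.9 in Mtg16 T/T tumors, and in a wider one in WT, at 2.11-16.4, 4.65-9.30 and 6.98-17.1. Csf3r per 100 of S100a8 overlapped between genotypes in each setting, at 7.67-23.2 in crypts after DSS and 44.1-84.4 in tumors. Baseline crypts with at least 10 counts of S100a8 lay between and within these ranges, at 17.4-58.8 in distal crypts. Camp per 100 of Ngp ran from 6.87 to 14.7 in the 4 Mtg16-/- crypt libraries.

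**Figure D4:**
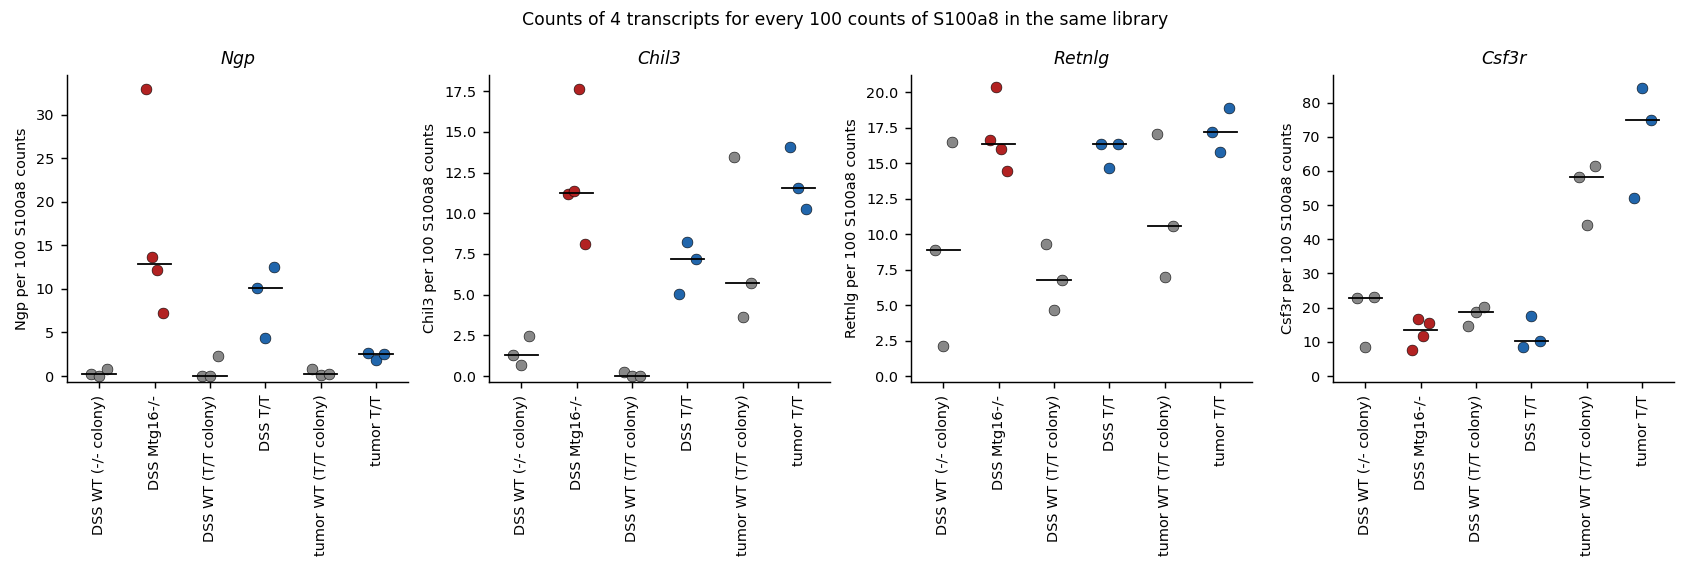
Counts of Ngp, Chil3, Retnlg and Csf3r for every 100 counts of S100a8 in the same library, for the 6 groups after DSS and in tumors; points are libraries and bars are group medians. Ngp lies at 7.29-32.9 in Mtg16-/- crypts against 0-0.846 in their WT littermates, and Csf3r lies at 7.67-23.2 in crypts and 44.1-84.4 in tumors.

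WT crypts of the Mtg16 T/T colony gave the effect of DSS without a mutation, although the 2 groups were sequenced under different request numbers (the number that opens each library's label), and treatment and request cannot be told apart. S100a9 read 160, 24.8 and 41.6 after DSS and 8.49, 4.50 and 7.38 at baseline, a ratio of means of 11.1 (log2 difference 2.89, SE 0.68), which was 4.89 without DSS replicate 1. S100a8 read 258, 44.4 and 72.6 against 37.6, 47.2 and 29.5 (1.31, SE 0.63) and overlapped. Il1b read 156, 17.6 and 50.6 against 17.0, 16.9 and 6.15 (2.01, SE 0.81), with replicate 2 just above the baseline libraries.

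Retnlg read 24.0, 2.07 and 4.90 against 0, 1.12 and 0, which is 45 reads against 1 and a ratio of read shares of 29.5 (95% counting interval 5.03 to 1191). The ratio of its means was 27.6, and 9.29 without DSS replicate 1. Replicate 1 was the highest DSS library for these 4 genes. Lyz2 read 360, 166 and 248.9 against 122, 185 and 134 (0.76, SE 0.33), Ltf 386, 372 and 556 against 444, 635 and 439 (-0.21, SE 0.24) and Csf3r 37.7, 8.27 and 14.7 against 8.49, 16.9 and 9.84 (0.54, SE 0.58). All 3 overlapped. Ngp and Chil3 had at most 2 reads per group, and Camp was not listed. limma called S100a9, which passed the minimum mean through the DSS libraries alone, and no other member, where 35.6% of 13566 genes were called. Without DSS replicate 1 or any 1 baseline library the count was 0, and without DSS replicate 2 it was 2.

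Pan-leukocyte and T cell genes leaned the opposite way in these WT crypts (median log2 differences -0.28 and -0.24, beside 0.004 for all genes). Monocyte and macrophage genes were mixed, with a median of 0.35. Of the 20 tested, 6 were higher and 3 lower without overlap. Ptprc, the pan-leukocyte antigen CD45, fell from 639 ± 212 at baseline to 44.3 ± 40.0 after DSS (SD, n = 3 each; log2 difference -4.15, SE 0.64, limma adjusted p = 0.0101). Mrc1, the mannose receptor of tissue macrophages, fell from 171 ± 19.9 to 29.6 ± 34.4 (adjusted p = 0.0236). Ccr2, the chemokine receptor of monocytes, fell from 54.1 ± 27.5 to 8.16 ± 7.69 (adjusted p = 0.0395). Of 9 T cell genes none was positive. Casp1, whose protease cleaves pro-IL-1 beta, fell from 8247 ± 433 to 2798 ± 1318 (adjusted p = 0.0132), and 5 of the 9 tested genes of IL-1 receptors and processing fell, beside 21.6% of all genes tested. Cd177 rose from 60070 ± 567.9 to 118883 ± 26821. These calls depended on single libraries: Ptprc had an adjusted p of 0.0513 without DSS replicate 1 and 0.0542 without baseline replicate 2, and 1 gene of the table was called without baseline replicate 2.

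The choice of genes named mainly the libraries after DSS and in tumors, and the members were tested at baseline. They were chosen with earlier results of these data known, so the p-values at baseline are not free of that choice. In WT mice, S100a8 and Ltf were higher in distal than in proximal crypts. S100a8 ran from 11.3 over a median of 27.7 to 44.0 in 7 distal libraries and read 0.796, 0.969, 5.17 and 3.87 in 4 proximal ones, without overlap. The log2 difference was 3.04 (SE 0.43, limma adjusted p = 7.11e-05). S100a8 passed the minimum mean through the distal libraries alone, and with no filter on low values its adjusted p was 6.34e-05. Ltf ran from 407 over 421 to 618 in distal crypts and read 86.0, 135, 206 and 151 in proximal crypts (1.75, SE 0.21, adjusted p = 1.15e-05). Distal means were 471 ± 91.8 (SD, n = 7) for Ltf and 27.4 ± 10.6 for S100a8, and both genes were higher in 7 of 7 distal libraries than in any proximal one. Of all genes tested, 20.1% were called higher distally, and 11.2% of all genes of the table were higher without overlap.

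Within request 4149, the only request with both segments, the differences were 3.61 for S100a8 (adjusted p = 0.0119) and 1.97 for Ltf (adjusted p = 0.00832), and 1.04 for Lyz2 (adjusted p = 0.211). Lyz2 averaged 116 distally and 76.4 proximally (0.71, SE 0.30, adjusted p = 0.0690). Without proximal WT replicate 2 of the Mtg16 T/T colony its adjusted p was 0.0124. Il1b averaged 13.5 and 8.56 (0.56, SE 0.34, adjusted p = 0.201). S100a9, under the minimum mean, averaged 7.49 and 1.20, without overlap. Pan-leukocyte and T cell genes went the other way: 8 of 9 and 8 of 9 were called lower distally, beside 22.0% of all genes tested, among them Ptprc (561 ± 207 against 1689 ± 433, log2 difference -1.65, adjusted p = 0.000226). Of 19 tested monocyte and macrophage genes, 7 were called higher and 6 lower.

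**Figure D5:**
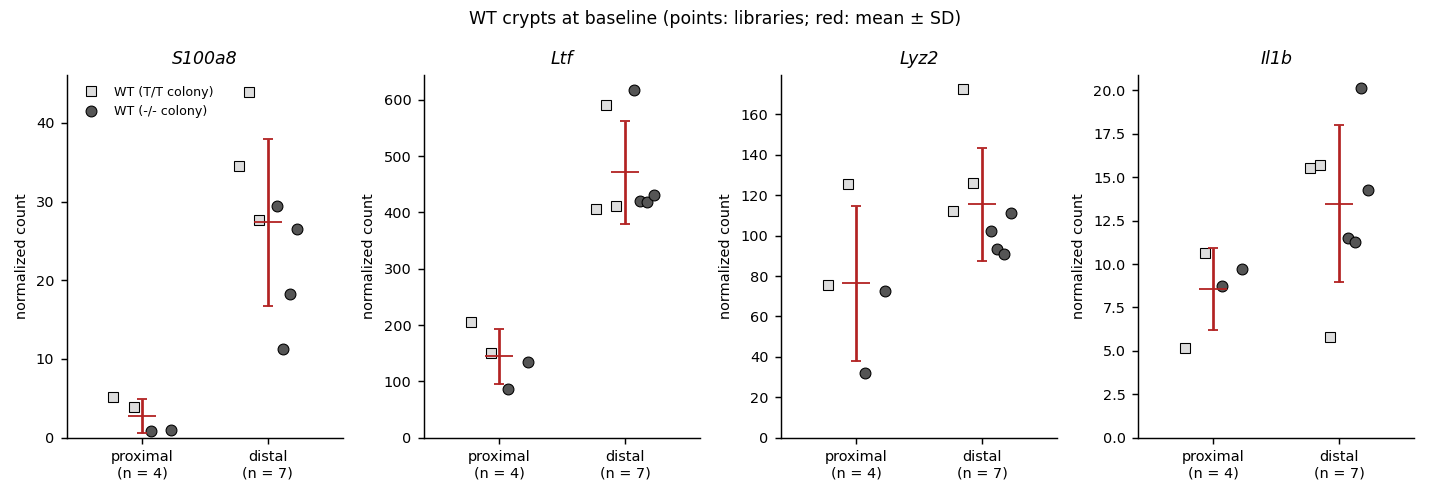
Normalized counts of S100a8, Ltf, Lyz2 and Il1b in WT crypts at baseline, proximal (n = 4) and distal (n = 7); points are libraries and red marks are mean ± SD. S100a8 and Ltf do not overlap between segments, whereas Lyz2 and Il1b do.

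No tested member was called in a mutant at baseline. In distal Mtg16-/- crypts S100a8 read 3.48, 3.14, 36.9 and 5.72 against 30.2, 11.6, 18.8 and 27.1 in WT (log2 difference -1.38, SE 0.72, limma adjusted p = 1.00). Lyz2 read 95.03, 31.4, 220 and 188 against 105, 96.1, 93.3 and 114 (0.06, SE 0.55), and its Mtg16-/- libraries fell on both sides of WT. Ltf had a difference of -0.78 (SE 0.49) and Il1b of -0.34 (SE 0.56). Of the 13831 genes tested, 0.239% were called. The differences varied with the request. Within request 5094 (replicates 1 and 2) they were -2.20 for S100a8, -1.48 for Ltf and -0.86 for Lyz2. Within request 4149 (replicates 3 and 4) they were -0.56 for S100a8, -0.07 for Ltf, 0.98 for Lyz2 and 0.14 for Il1b.

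In proximal Mtg16-/- crypts, with 2 libraries a group, Ltf read 188 and 168 against 92.7 and 144 (0.62, SE 0.31, adjusted p = 0.871). Lyz2 read 354 and 49.9 against 34.4 and 77.5 (1.35, SE 0.88, adjusted p = 0.908), a difference that rests on replicate 1 (-0.05 without it). Il1b read 40.3 and 12.97 against 9.45 and 10.3 (1.14, SE 0.70, adjusted p = 0.903). Of the 13944 genes tested, 0.0645% were called.

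In proximal Mtg16 T/T crypts Ltf read 97.3 and 91.5 against 200 and 145 (-0.85, SE 0.24, adjusted p = 0.281), and Lyz2 71.9 and 162 against 73.4 and 121 (0.20, SE 0.44, adjusted p = 0.876). Of the 13767 genes tested, 0.232% were called. In distal Mtg16 T/T crypts Lyz2 read 276, 127, 170 and 568.2 against 105, 162 and 116 (0.94, SE 0.49) and S100a8 0.847, 8.16, 16.2 and 49.0 against 32.4, 41.1 and 25.6 (-1.61, SE 1.00). The 6 tested members had adjusted p-values of 0.863 to 0.956, where 0.0369% of 13535 genes were called. Mtg16 T/T replicate 4 held the highest value of its group for Ngp (10.2), S100a8 (49.0), S100a9 (42.8), Lyz2 (568.2), Retnlg (5.10) and Csf3r (21.4). Members under the minimum mean were not tested.

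The genes whose pattern lay closest to the mean log2 level of the 10 members were ranked by the lowest of 3 Pearson correlations, over the 7 Mtg16-/- and WT crypt libraries after DSS, the 6 Mtg16 T/T and WT ones and the 6 tumors. Of 11618 candidates the leading ones were Csf2rb (0.866), Rimbp2 (0.865), Plekho1 (0.859), Fcgr2b (0.849) and Srgn (0.842), followed by Glipr1, Apol6, Cfp, Cyfip2 and Wdfy4 (0.830 to 0.811). Libraries of a comparison share their genotype difference and their overall scaling, so these values describe likeness only. Csf2rb, the common chain of the GM-CSF, IL-3 and IL-5 receptors, is a member of the receptor list.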

How the data were processed

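RNA from 42 libraries (poly(A), paired-end) was quantified by the authors with fastp 0.20.0, Salmon 1.3.0 (GENCODE vM21, mm10), tximeta and DESeq2 1.26.0 in R 3.6.3. The 9 deposited tables give signal values: per-gene counts divided by DESeq2 size factors within each table (normalized counts). Genes with 1 read or fewer over a table were omitted by the authors. Table columns with the authors' own fold changes and p-values were not used. Whole reads were recovered in 7 tables: in each library 100.0% of values came out whole within 0.01. The 2 proximal mutant tables were not recovered. Libraries in several tables had identical reads (16 of 16 pairs).

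Differences were fitted with limma 3.58.1 (trend, R 4.3.3) on log2(normalized count + 1) for genes with a mean of at least 10, within each table, with Benjamini-Hochberg adjustment over all genes tested and a threshold of 0.05. A fold on this scale understates low genes. Alternatives were a pseudocount of 0.1, no filter, each library left out, a replicate block, request or colony as covariate, and, on the recovered reads, DESeq2 1.42.0 and edgeR 4.0.16. The fits were tested on simulated data. CPM are normalized counts scaled to a library total of 1000000.

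The labels do not say what replicate numbers mark. Same-numbered libraries correlated at 0.554, 0.46 and 0.317 in the Mtg16-/- comparison after DSS, and were treated as pairs there only. Mtg16-/- replicate 4 has no partner and does not add to the blocked difference. Nothing states whether replicates are separate mice in each case, so p-values measure the spread between these libraries.

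The members and lists were chosen with earlier results of these data known. Named list genes were those called without overlap between groups, at most 4 per list and comparison by size, from which the text gives a selection. Mmp8, Itgb2l, Stfa3, Mpo, Elane, Cebpe and Cd177 after DSS by genotype or in tumors, and Pglyrp1, were chosen after their values were seen. Lyz2, Chil3 and Retnlg can share reads with Lyz1, Chil4, and Retnla or Retnlb.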

Additional observations from a re-analysis of the deposited data

Results flagged for a closer look

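At baseline and in Mtg16-/- crypts after DSS, 32 combinations of a member and a group of 4 or 7 libraries were examined for a library far from the others, and 3, all at baseline, had one, where chance gives about 1 in 20. S100a8 read 36.9 in distal Mtg16-/- replicate 3, the next library of the group being at 5.7. Ltf read 633.2 in distal WT replicate 1 of the Mtg16-/- colony, next to 441.6. Lyz2 read 172.7 in distal WT replicate 2 of the Mtg16 T/T colony, next to 125.9 among the 7 distal WT libraries.

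Ltf in proximal crypts lay above WT in both Mtg16-/- libraries and below WT in both Mtg16 T/T libraries. The 2 log2 differences are 1.46 apart. This difference was not tested, and it rests on 2 libraries a group.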

How the results depend on the processing

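Alternatives were run for every comparison. In Mtg16-/- crypts after DSS the count of members called, 4, became 9 with the replicate block (1271 genes called in place of 91), 8 with DESeq2 (727 genes), 2 with edgeR (87 genes) and 1 to 5 with 1 library left out. In Mtg16 T/T crypts after DSS it was 0, and 5 with DESeq2. In WT crypts after DSS it was 1, 3 with DESeq2 (which called 44.1% of genes) and 0 to 2 with 1 library left out, while genes called ran from 1 to 9086 and were 2679 with the replicate block. Between WT segments it was 2, 4 with no filter on low values, and 2 to 3 with 1 library left out. The replicate block changed no other call of a member but that of Lyz2 between WT segments (adjusted p = 0.0452), where same-numbered libraries correlated at -0.126 to 0.16 and share only a number. The cause of these changes was not tested.

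No called member reversed its direction. Members that were not called did. With 1 library left out, Lyz2 ran from -0.05 to 2.75 in proximal Mtg16-/- crypts (negative without Mtg16-/- replicate 1), from -0.29 to 0.63 in distal Mtg16-/- crypts (negative without Mtg16-/- replicate 3 or, at -0.22, replicate 4) and from -0.38 to 0.78 in proximal Mtg16 T/T crypts (negative without Mtg16 T/T replicate 2 or, at -0.16, WT replicate 1). Il1b ran from -0.66 to 0.18 in distal Mtg16-/- crypts (positive without Mtg16-/- replicate 2), and Csf3r from -0.40 to 0.19 in distal Mtg16 T/T crypts (positive without Mtg16 T/T replicate 2). Within requests, Lyz2 turned to -0.86 (5094) and Il1b to 0.14 (4149) in distal Mtg16-/- crypts. S100a9 in distal Mtg16 T/T crypts turned to -0.47 with the replicate block. After injury and in tumors, leaving out 1 library moved Ltf from -0.12 to 0.40 in Mtg16 T/T crypts and Csf3r from -0.02 to 1.01 in WT crypts. In tumors it moved S100a8 from -0.45 to 0.11, S100a9 from -0.20 to 0.41, Il1b from -0.55 to 0.04, Csf3r from -0.24 to 0.44 and Ltf from -2.12 to 1.23. Counts of 0 in WT make the differences of Camp in Mtg16-/- crypts (5.59) and of Ngp (5.15) and Chil3 (5.08) in Mtg16 T/T crypts move with the pseudocount, to 8.85, 7.53 and 7.62 at 0.1.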
